A study of Capra hircus with 13 samples.

Results

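Goat MII oocytes were compared with untreated 4-cell embryos, 3 libraries of each, for the mRNA of every gene that both deposited tables could measure. MII oocytes are mature eggs held at the second meiotic metaphase, and the labels place the 4-cell embryos after fertilization *in vitro*. How the oocytes of these libraries were matured is not given in the sources used here. Neither group received an injection. The wider study silenced *YTHDF2*, a reader of N6-methyladenosine in mRNA, by siRNA in embryos grown to 8 cells, and none of those libraries enters the comparison. The 6 libraries belong to a series of 13 samples. Genes entered where the name was listed once in both tables and the mean over the 6 libraries was at least 1 FPKM, a fragment count scaled by gene length and library total, which left 8705 genes of 18159 names. The untreated libraries were taken from 2 earlier studies, and the sources used here do not say which library came from which, nor how many oocytes or embryos each held. Stage, study of origin and deposited table therefore cannot be told apart.

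The oocyte transcribes almost nothing once it has resumed meiosis, and the embryo lives at first on the mRNA laid down during growth of the oocyte. Through the maternal-to-zygotic transition this store is translated, deadenylated and degraded in waves while the genome of the embryo begins to be transcribed, with minor transcription in the earliest cleavages and the main wave around the 8-cell stage in ruminants. The interval from MII to 4 cells thus spans fertilization, the exit from meiosis, the first cleavages and the early part of both processes. Per the labels, libraries were made by Smart-seq2 from polyadenylated RNA, so the amount of an mRNA and the length of its poly(A) tail cannot be told apart in its value.

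The MII libraries held 34219300 to 42495116 fragments in total and the 4-cell libraries 26853876 to 28750869, as recovered from the steps between the deposited values. Only 64.9 to 66.3% of the MII fragments fell on the shared genes, against 96.1 to 97.0% of the 4-cell fragments. FPKM as deposited were therefore rescaled by a median-ratio factor per library, from 0.832 to 1.039 in MII oocytes and from 0.974 to 1.320 in 4-cell embryos, and all levels below are rescaled FPKM. Pearson correlations of log2(FPKM + 1) over the genes, which are not independent replicates, ran from 0.942 to 0.977 within a stage and from 0.861 to 0.881 between stages. MII replicate 2 was the library least like its group, at 0.942 and 0.959 to the other MII libraries. Oocyte markers were present in both stages, with 12 of 15 listed in both tables and a summed level of 1620 to 2322 in MII oocytes against 2172 to 2591 in 4-cell embryos (exact permutation test, two-sided p = 0.2, where 0.1 is the smallest that 3 against 3 allows). The 14 listed markers of cumulus cells, the follicle cells that surround an oocyte, summed to 61.3 to 98.1 and 58.7 to 81.9, and none of the 8 tested was called. MII replicate 3 stood apart in some of them, with *TNFAIP6* at 23.2 beside 1.44 and 0.753, *VIM* at 3.16 beside 0.0705 and 0.0572, *PTX3* at 2.82 beside 0 and 0.0592 and *INHA* at 1.63 beside 0 and 0.0246 in MII replicates 1 and 2. Several other cumulus markers did not stand apart in MII replicate 3. *HAS2* stood there at 9.79 beside 11.3 and 9.62, *STAR* at 34.9 beside 33.9 and 32.7 and *VCAN* at 18.3 beside 18.5 and 14.3. *GREM1*, at 0.67 beside 1.05 and 0.955, was lowest in that library, as was *CYP19A1*. In the 4-cell libraries *VIM* was at 2.21, 3.34 and 0.95 and *TNFAIP6* at 6.3, 2.78 and 1.37. *AMH* was at 0 in all 6 libraries. Sperm markers summed to 4.36 to 6.37 and 9.62 to 12.4, nearly all from *ODF2*, without overlap of the stages (exact permutation test, two-sided p = 0.1, the smallest possible). The other listed sperm markers were under 1 in every library and moved both ways. *ODF1* went from 0.0667, 0.812 and 0.0281 to 0 in each 4-cell library, and *AKAP4* from 0.195, 0.140 and 0.232 to 0.293, 0.299 and 0.856. The sum thus reports *ODF2*. The 2 listed blood cell markers summed to at most 0.218 in a library.

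Of the 8705 genes, 965 (11.1%) were higher and 924 (10.6%) lower in 4-cell embryos than in MII oocytes. A gene was called where limma with a mean-variance trend, fitted over all 8705 genes on log2(rescaled FPKM + 1), gave a Benjamini-Hochberg adjusted p under 0.05 and the change exceeded 2-fold. The called genes that rose had a median level of 7.02 in MII oocytes and 22.9 in 4-cell embryos, and those that fell 11.3 and 2.89. Changes over 4-fold numbered 138 up and 172 down, and changes over 8-fold 37 up and 32 down. The libraries of the stages did not overlap for 927 of the 965 and 901 of the 924 called genes. Among all 8705 genes they lay apart for 2304 upward and 1967 downward. The call favours genes whose stages lie apart, so these counts are no separate evidence. The share of calls that were higher depended on the scaling: 71.3% with values as deposited, 46.9% after quantile normalization, 31.8% with equal summed FPKM and 30.5% with the fragments on shared genes as the total, against 51.1% here. The median change of all tested genes moved with it, from 0.07 on the log2 scale here to 0.29 with values as deposited and -0.15 with the fragments on shared genes as the total. Calls kept under all 4 other scalings numbered 562 up and 592 down, and none of the called genes took the other sign in any of the settings tried. Since each value is a share of its library, the total mRNA of an embryo was not measured, and the number of cells and the RNA of each cell cannot be told apart.

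**Figure D1:**
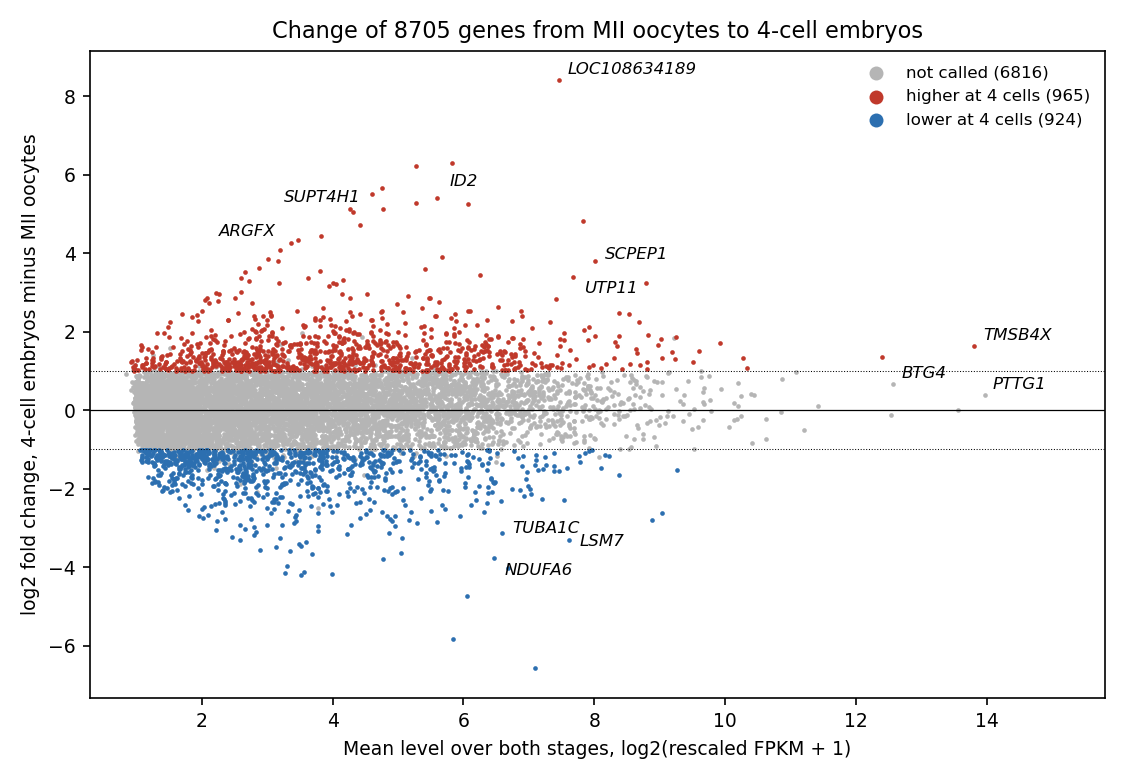
Change of each of the 8705 tested genes, with the log2 mean level over both stages on the horizontal axis and the log2 fold change of 4-cell embryos minus MII oocytes on the vertical axis. Dotted lines mark 2-fold, 965 genes are called higher (red) and 924 lower (blue), and several of the most abundant mRNAs, such as *PTTG1* and *BTG4*, lie inside the lines.

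The furthest rises were taken among called genes with a symbol, a mean of at least 10 FPKM as deposited and stages that did not overlap. *ID2*, a helix-loop-helix protein that binds and inhibits other factors of its class, stood at 0.266, 0.0787 and 6.60 in the 3 MII libraries and at 87.2, 79.1 and 111 in the 3 4-cell libraries. MII replicate 3 held most of the little there was in oocytes, and the stages were far apart (log2 fold change 5.41, SE 0.61, limma adjusted p = 0.000273, and 6.35 without that library). *SUPT4H1*, the small partner of SUPT5H in the elongation factor DSIF, rose from 0.0404, 0.0819 and 0.849 to 20.3, 93.2 and 44.2. Its 4-cell values spread over more than 4-fold, and its change of 5.14 (SE 0.47) became 4.54 without 4-cell replicate 2. *ARGFX*, a PRD-like homeobox factor of early embryos, was at 0.0828 in 1 MII library and 0 in the others, and at 23.0, 22.4 and 15.0 in 4-cell embryos. *PMAIP1*, whose product NOXA antagonizes survival proteins of the BCL2 family, went from 1.16, 1.55 and 0.973 to 24.1, 26.3 and 23.7, the tightest of these rises (log2 fold change 3.54, SE 0.21).

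Several further rises had higher starting levels, so that the oocyte already held the mRNA. *SCPEP1*, a serine carboxypeptidase, stood at 16.9, 44.0 and 36.6 in MII oocytes and at 347, 287 and 807 in 4-cell embryos. *UTP11*, a component of the small subunit processome that builds ribosomes, went from 24.5, 57.7 and 23.1 to 510, 211 and 395. Every 4-cell library exceeded every MII library for both, as the limits require. *SAR1B*, the GTPase that starts COPII vesicles, rose by 3.61 on the log2 scale, *RBM7*, part of the nuclear exosome targeting complex, by 2.97, and *BROX* by 2.86. *GPR137B*, a lysosomal membrane protein, *JAZF1*, a zinc finger cofactor, and *PPP2R3C*, a regulatory subunit of protein phosphatase 2A, rose by 2.92, 2.87 and 2.86. The adjusted p over these 12 genes ran from 3.51e-06 for *ARGFX* to 0.000366 for *UTP11*.

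The furthest falls were taken by the same limits. *NDUFA6*, a subunit of respiratory complex I, fell from 193, 239 and 61.8 in the MII libraries to 14.3, 7.26 and 8.24 in the 4-cell libraries (log2 fold change -3.76, SE 0.46, limma adjusted p = 0.000429). MII replicate 3 was the lowest oocyte library here, and without it the change was -4.36. *LSM7*, of the Lsm rings that bind the ends of U6 snRNA and of decaying mRNA, fell from 520, 407 and 147 to 53.3, 19.7 and 27.5. *RPS19*, a protein of the small ribosomal subunit, went from 39.97, 52.4 and 9.57 to 3.48, 2.29 and 2.56, with MII replicate 3 again lowest (-2.93, and -3.65 without it). *TUBA1C*, an alpha-tubulin, had another order of the oocyte libraries, from 131, 158 and 224 to 17.4, 23.0 and 14.7. *NOL7*, a nucleolar protein, stood at 42.2, 27.7 and 27.4 and then at 2.48, 1.90 and 4.03, and *C20H5orf47* at 71.5, 59.4 and 73.4 and then at 8.99, 7.14 and 9.37. That none of these genes had overlapping stages follows from the limits.

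*IL9*, which encodes a cytokine, fell by 3.24 on the log2 scale, *TMEM254*, a membrane protein, by 3.07 and *KRTCAP2*, an accessory subunit of oligosaccharyltransferase, by 2.84. *R3HCC1* fell by 2.94, but MII replicate 2 stood apart at 55.5 beside 10.8 and 6.51, and the change was -2.08 without it and -3.55 without MII replicate 3. The names *MIR147* and *MIR187* also fell, from 39.4, 89.1 and 27.0 to 6.15, 2.27 and 5.42 and from 57.7, 54.3 and 48.5 to 3.93, 6.99 and 8.04. Such a name counts fragments of polyadenylated RNA over the precursor of a microRNA, not the mature microRNA, and reads of another transcript across the same place cannot be told apart from it. Of the 13 microRNA names tested, 6 were lower and 1 was higher.

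**Figure D2:**
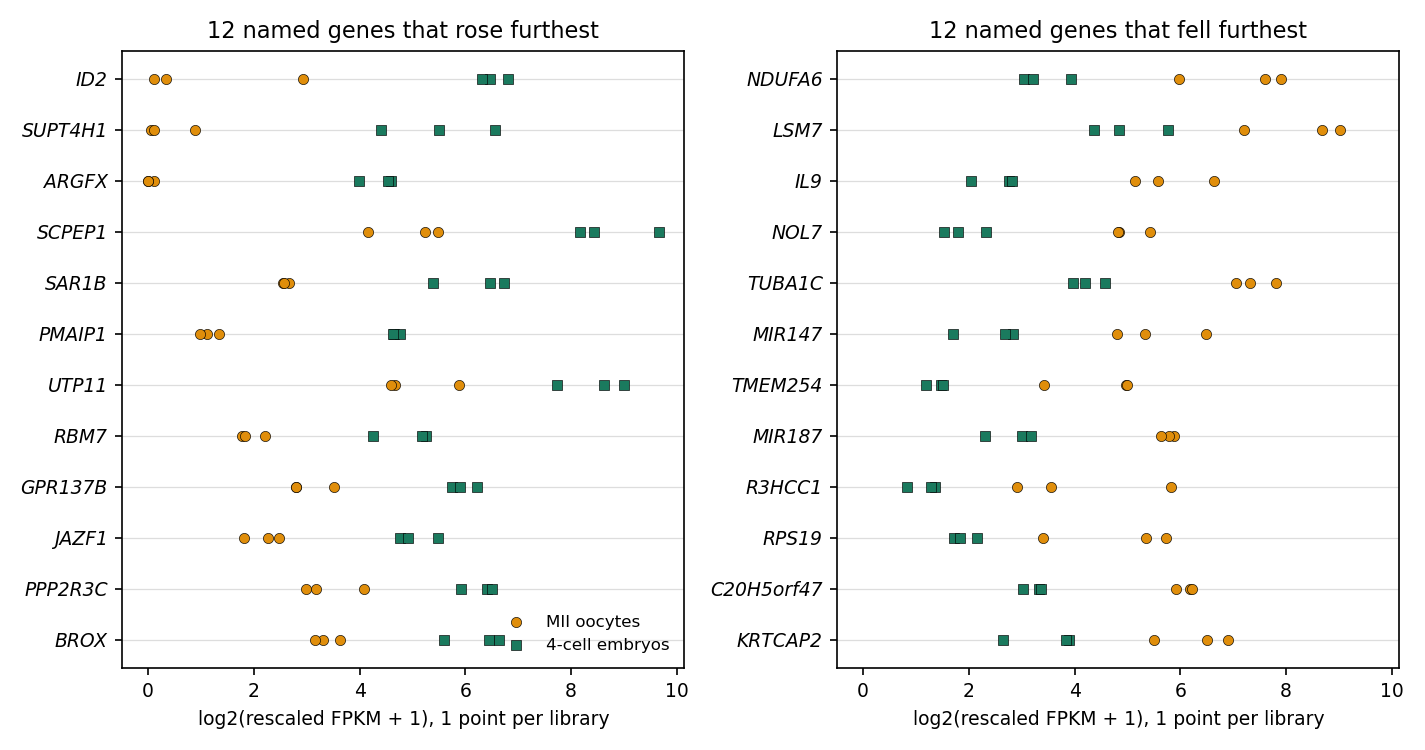
Levels of the 12 named genes that rose furthest and the 12 that fell furthest, as log2(rescaled FPKM + 1) on the horizontal axis with 1 point per library. Circles are MII oocytes and squares 4-cell embryos. The 24 genes were chosen among those whose stages do not overlap. *ID2* has 1 MII library apart from the others at 6.60, before the log.

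Genes known only by a locus number moved further than any gene with a symbol, and are described here after their values were seen. *LOC108634189*, annotated as protein-coding, had 1, 2 and 1 fragments in the MII libraries and 14360, 16694 and 13178 in the 4-cell libraries, or levels of 377, 346 and 327. *LOC102170755*, a transcribed pseudogene, went the other way, from 249, 176 and 386 to 1.07, 3.73 and 1.01 (log2 fold change -6.58). Locus numbers made up 901 of the tested genes, of which 155 (17.2%) were higher and 170 (18.9%) lower, beside 11.1 and 10.6% of all. The authors kept reads with a single place in the genome, so members of families with near-identical copies are uncertain.

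In 27 of the genes that rose, each MII library held at most 3 fragments, and in 11 of these, all locus numbers, each held 0. Against a floor of 3 fragments per library those 11 were at least 24.03- to 511-fold higher in 4-cell embryos. Among the genes that fell, 16 had at most 3 fragments in each 4-cell library and 6 had 0, and those 6 were at least 17.0- to 339-fold lower. Of the 27, 21 were locus numbers, and those with a gene symbol were *ARGFX*, *OLR1*, a scavenger receptor, *RNASE12*, of the ribonuclease A family, and *HSD17B2*, a hydroxysteroid dehydrogenase. *OLR1* went from 3, 3 and 0 fragments to 83, 192 and 135, and *RNASE12* from 3, 0 and 0 to 67, 26 and 50. The 2 names with a symbol among the 16 were the microRNA names *MIR92B* and *MIRLET7I*.

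Some of the locus numbers that rose lay side by side. In the order of genes in RefSeq (assembly ARS1.2, used for order and names only), the longest run of neighbouring tested genes with the same call was 8 genes between *NAALAD2* and *FOLH1B*, and the next was 7 genes between *LRRC38* and *C16H1orf158*. Both runs were of genes that rose, no other run passed 4 genes, and the longest run of genes that fell was 4. The first run holds *LOC108634189* and, among others, *LOC102190105*, with 0 fragments in each MII library and 1261, 2349 and 754 in 4-cell embryos, and *LOC102190382*, with 0 in each and then 311, 593 and 449. Over its 8 genes a MII library held at most 24 fragments of a gene and a 4-cell library at least 126. Their levels summed to 0.197, 0.0985 and 0.744 in MII oocytes and to 479, 452 and 403 in 4-cell embryos. Between the same flanks RefSeq lists 16 genes, of which 5 were not in both tables, 2 were below the filter and 1, *LOC102178042*, was tested and not called, at 264, 169 and 292 and then 290, 230 and 332.

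The second run rose from summed levels of 0.558, 0.985 and 1.89 to 110, 185 and 88.6. *LOC102176812* led it, from 18, 33 and 56 fragments to 2235, 4024 and 1799, and *LOC102179871* had 0 in each MII library and 607, 1268 and 666 in the 4-cell libraries. *LOC102177081* was the least even, at 0, 0 and 10 and then 191, 575 and 39. Of the 24 genes that RefSeq lists between these flanks, 14 were not in both tables, 2 were below the filter and 1, *LOC102180412*, was tested and not called (log2 fold change 0.84, adjusted p = 0.061). In both runs the gene models had similar lengths, 1248 to 1568 bases in the first and 1134 to 1434 in the second. All 15 genes kept their call under the 4 other scalings. Since the runs were found among the called genes, and their members passed the filter through the 4-cell libraries, no test was made of them.

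**Figure D3:**
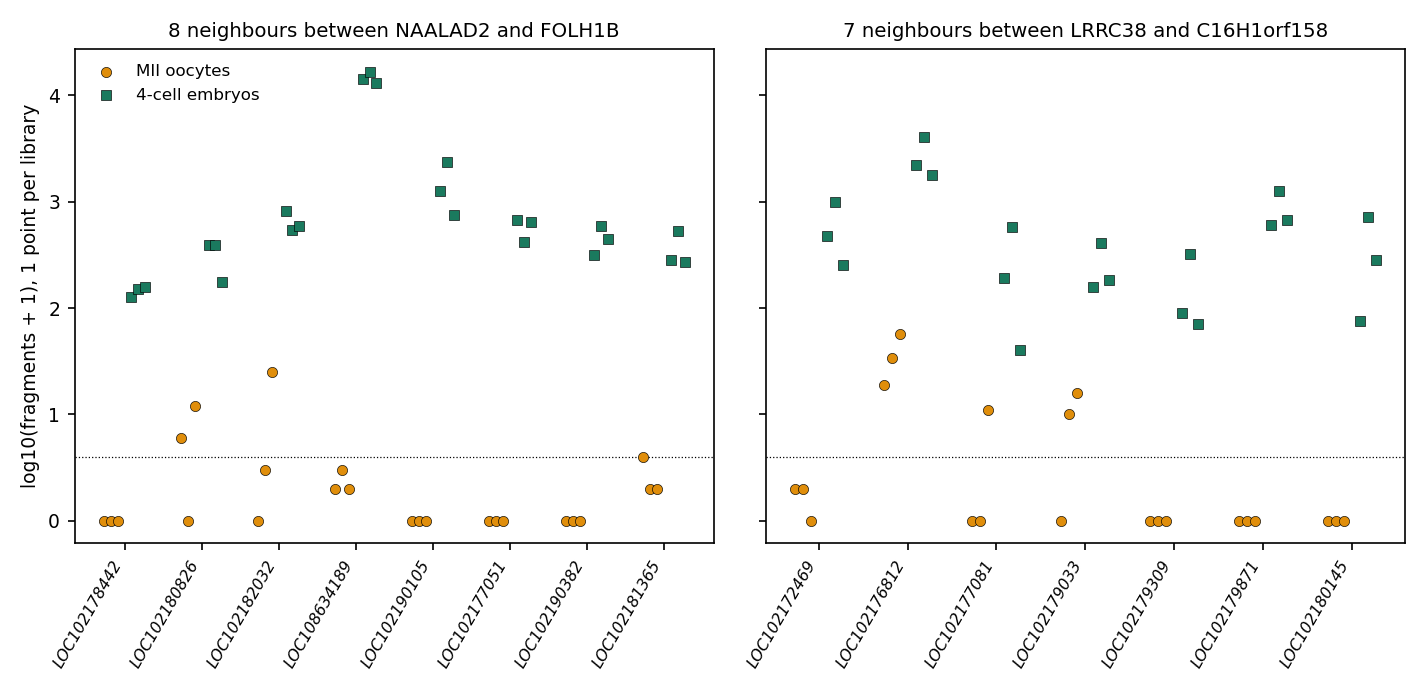
Fragments of the genes in the 2 longest runs of neighbouring genes that rose, in the order RefSeq gives them, as log10(fragments + 1) on the vertical axis with 1 point per library. The dotted line marks 3 fragments, circles (MII oocytes) reach at most 24 fragments on the left and 56 on the right, and every square (4-cell embryos) of a gene lies above its circles.

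The called genes differed by level, length and kind. Among genes with a mean of 1 to 10 FPKM as deposited, before rescaling, 7.64% were higher and 11.3% lower. From 100 to 1000 FPKM on the same scale the shares were 16.7 and 7.03%, and of the 27 genes over 1000 FPKM 5 were higher and 0 lower. The fifth of genes with the shortest models, 66 to 1486 bases, held 20.8% lower and 12.8% higher calls, and the fifth with the longest, from 5051 bases, 4.43 and 7.70%. Transcribed pseudogenes were lower in 49 and higher in 19 of 112, and other pseudogenes lower in 24 and higher in 23 of 109. With a lowess trend of the change on length removed, the counts were 1024 higher and 815 lower.

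Of the most abundant mRNAs described here, *TMSB4X* and *PAIP1* were called higher and none lower. *PTTG1*, encoding the securin that holds separase in check until anaphase, stood at 13105, 9519 and 17606 in MII oocytes and at 28458, 9935 and 17264 in 4-cell embryos, which overlap. *LOC102171358*, which neighbours *OOSP2* in RefSeq, stood at 11459, 8467 and 15190 and then at 17823, 6617 and 12718. *BTG4*, the adaptor that brings the CCR4-NOT deadenylase to maternal mRNA, had 4907, 3417 and 5668 and then 8408, 5327 and 8550, and its change of 0.67 (SE 0.35) was not called (adjusted p = 0.158). *CKS1B*, a cofactor of cyclin-dependent kinases, had 6029, 4871 and 7512 and then 6601, 3914 and 6481. *TMSB4X*, the actin-sequestering thymosin beta 4, rose from 7049, 4185 and 8706 to 35285, 10474 and 20406. Its change of 1.63 (SE 0.49, adjusted p = 0.0269) was lost without MII replicate 1 or 2 or 4-cell replicate 1 or 3. *PAIP1*, which joins poly(A)-binding protein to the initiation machinery, rose from 2992, 2754 and 3116 to 8878, 5419 and 9073, a call lost after quantile normalization and without MII replicate 1.

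Gene groups were read from 38 lists, of which 1834 genes were listed in both tables and 1463 tested. For each list the relative median is its median log2 change minus that of all tested genes, given with its range over the 4 other scalings, beside the 11.1% and 10.6% of all genes called higher and lower. The larger of the higher and lower counts stayed the larger under each of the 4 other scalings in 9 of the 38 lists: zygotic activation factors and apoptosis (more higher), and maternal-effect genes, DNA repair, DNA methylation, cytosolic ribosomal proteins, oxidative phosphorylation, autophagy and cell junctions (more lower). In the others the balance of the counts depends on the scaling. The relative median took the other sign under a scaling in 4 lists and without a library in 12. Of the 197 called genes chosen for naming, 145 kept the call under the 4 other scalings and without each library in turn. Where a gene named below did not, at least 1 setting that lost the call is given. Other settings also lost calls, 32 with no filter and 29 in 1 fit of the 9 untreated libraries. The replicate number as a block lost 11 and removal of the length trend 5. Among calls kept under the scalings and without each library, the fit of 9 lost *DUXA*, *PPP2R1A*, *INCENP*, *DDX58* and *PABPN1L*. No filter lost *FIGLA*, *NDUFB4* and *PABPN1L*, and removal of the length trend lost *GABARAPL2*.

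**Figure D4:**
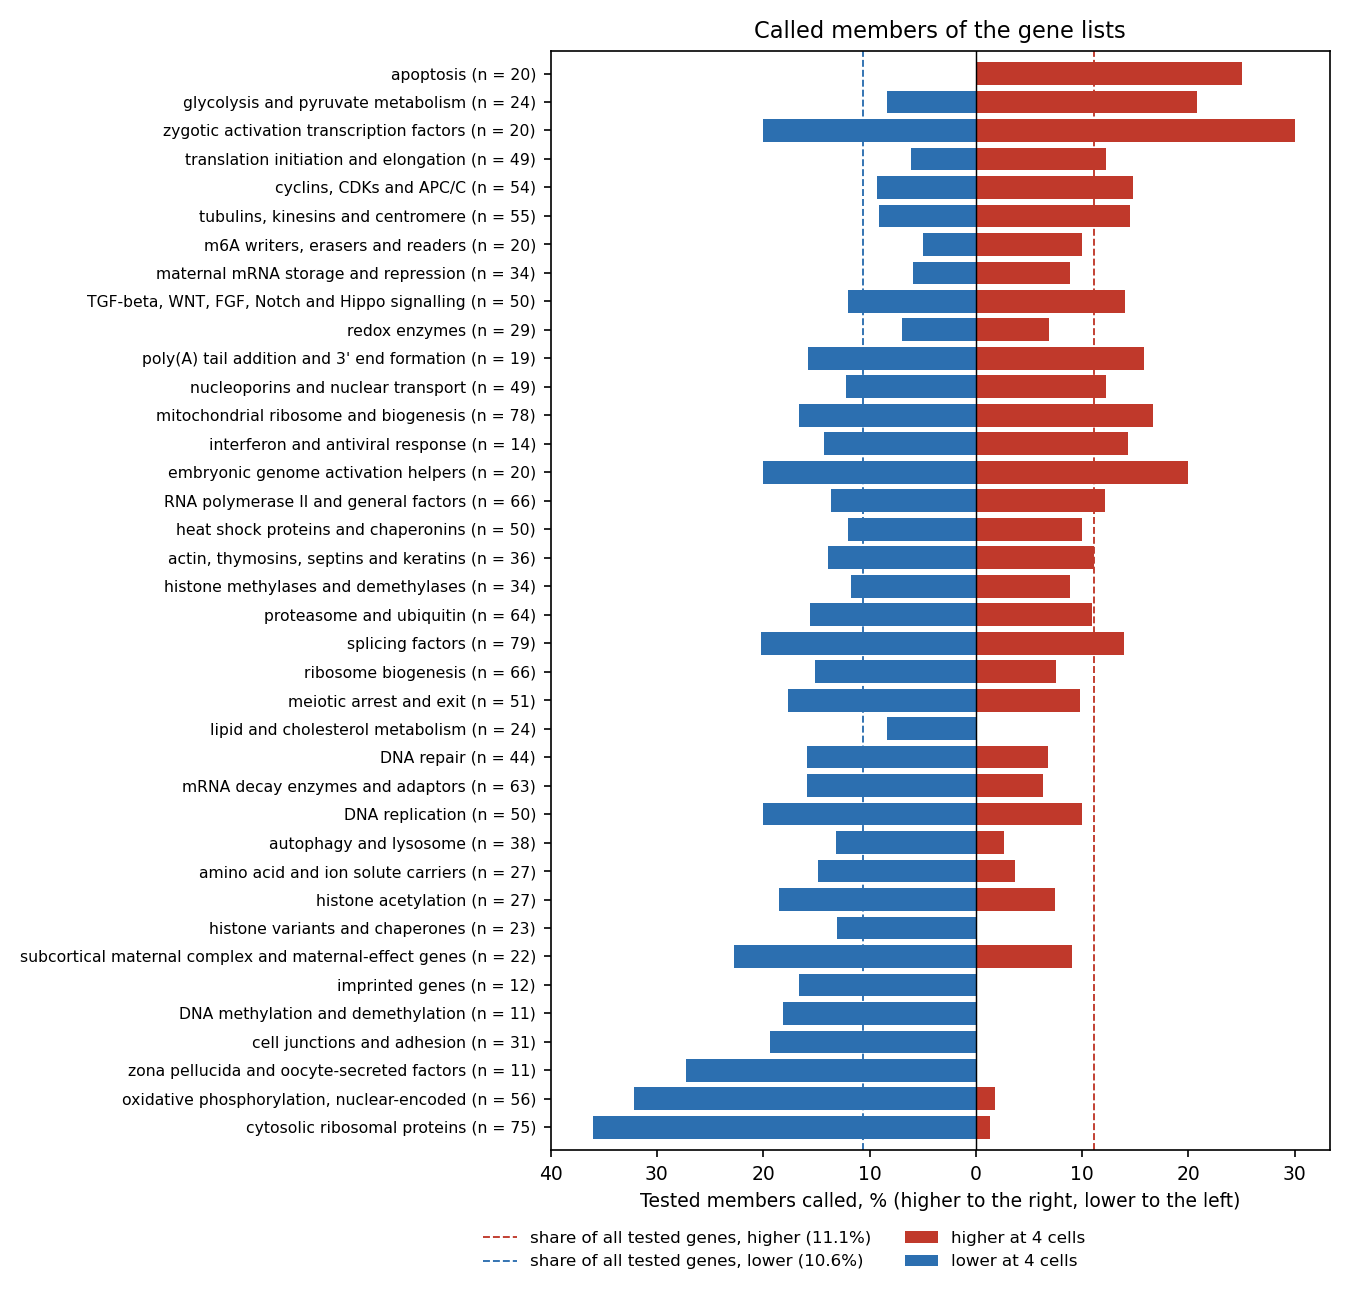
Share of the tested members of each of the 38 gene lists called higher (red, to the right) or lower (blue, to the left) in 4-cell embryos, in percent, with the number tested in brackets. Dashed lines mark the shares of all tested genes, 11.1 and 10.6%; cytosolic ribosomal proteins (36.0% lower) and oxidative phosphorylation (32.1% lower) extend furthest to the left and zygotic activation factors (6 of 20 higher) furthest to the right.

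Factors that switch on the embryonic genome moved in both directions. Of 20 tested members of the list of zygotic activation transcription factors, 6 were higher and 4 lower, (relative median 0.05, 0.04 to 0.12). Besides *ID2* and *ARGFX*, *DUXA*, another PRD-like homeobox gene, rose from 1.01, 0.877 and 0.397 to 8.31, 10.4 and 4.87. Those that fell furthest were *SALL4*, a zinc finger factor of pluripotent cells (10.5, 7.07 and 10.9, then 2.51, 2.96 and 1.40), *EGR1*, an immediate early gene (6.49, 5.92 and 7.04, then 0.862, 2.20 and 2.29), and *GATA2* (log2 fold change -1.23). The list held 42 listed genes, so 22 were under the filter.

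Of 20 tested helpers of genome activation, 4 were higher and 4 lower (relative median 0.25, 0.23 to 0.27). *SP1*, a general activator, rose from 0.498, 0.654 and 0.364 to 4.21, 2.43 and 2.45, and *CTCF*, which insulates chromatin domains, from 1.08, 1.22 and 0.828 to 3.88, 3.77 and 3.54. *TRIM28*, a corepressor of retroelements, fell from 14.6, 9.27 and 18.2 to 2.42, 4.20 and 2.56. *CDK9*, the kinase of the elongation factor P-TEFb, fell by 1.26, which was under 2-fold with values as deposited. *TRIM24* rose by 1.23, a call lost with equal summed FPKM or with the fragments on shared genes as the total.

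Of 66 tested genes of RNA polymerase II and its general factors, 8 were higher and 9 lower (relative median -0.19, -0.23 to -0.14). DSIF split: *SUPT4H1* rose, as above, and *SUPT5H* fell from 15.7, 9.85 and 15.4 to 3.38, 4.61 and 3.07. Of the Mediator subunits, *MED28* rose from 1.48, 3.12 and 1.49 to 11.2, 8.87 and 14.4, while *MED10* fell from 262, 246 and 217 to 47.5, 43.9 and 57.6 and *MED15* by 1.804. In total 2 of 20 Mediator subunits were higher and 2 lower, close to the shares of all genes, and of 11 polymerase subunits 3 were higher and 1 lower. *POLR2G* stood at 2.71, 40.9 and 2.93 in MII oocytes and at 56.9, 30.1 and 62.4 in 4-cell embryos, so MII replicate 2 lay within the 4-cell range. Its change was 2.51, 3.65 without that library and 1.92 without MII replicate 1, and its call was lost under 3 scalings and without MII replicate 1 or 3 or 4-cell replicate 1 or 3.

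Among 79 splicing factors 11 were higher and 16 lower (relative median -0.23, -0.38 to -0.17). *SRSF1*, an SR protein, rose from 6.86, 9.14 and 5.36 to 39.2, 24.6 and 28.1. The Lsm proteins split, with *LSM4* rising from 4.44, 16.0 and 7.75 to 28.4, 45.3 and 36.1, while *LSM7* fell, as above, and *LSM8* fell from 19.8, 16.6 and 13.6 to 5.40, 3.59 and 6.39. *U2AF1*, which recognizes the 3′ splice site, fell by 2.26. *SF3B5* rose by 1.71, a call lost without MII replicate 1 or 4-cell replicate 1 or 3. In formation of 3′ ends and tails 3 of 19 were higher and 3 lower (relative median -0.12, -0.19 to -0.08). *CPSF2* and *NUDT21*, of the cleavage machinery, rose by 1.36 and 1.29, and *PAPOLA*, the canonical poly(A) polymerase, rose from 37.5, 34.3 and 30.3 to 96.6, 68.6 and 83.6, a call lost under 2 scalings. The falls of *PAPD7*, *CLP1* and *CPSF4*, by 1.20, 1.08 and 1.02, were lost with values as deposited and without 4-cell replicate 3.

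Proteins that store and repress maternal mRNA had 3 higher and 2 lower of 34 (relative median 0.08, 0.04 to 0.10). *NANOS1*, a repressor partnered by Pumilio proteins, rose from 2.99, 6.17 and 2.14 to 32.7, 16.1 and 20.8, *LSM14A*, of processing bodies, by 1.74, and *DAZL*, a germ cell translation regulator, by 1.52. *FMR1* fell from 15.7, 13.4 and 13.1 to 2.50, 2.04 and 2.17. *CPEB1*, which binds the cytoplasmic polyadenylation element, fell by 1.38, a call lost with values as deposited and without 4-cell replicate 1 or 3. The decay machinery had 4 higher and 10 lower of 63 (relative median -0.19, -0.21 to -0.17). *PAIP2*, an inhibitor of poly(A)-binding protein, rose from 3.78, 20.0 and 3.36 to 47.6, 42.3 and 39.4 (2.53, and 3.25 without MII replicate 2), and *BTG2*, a deadenylation adaptor, by 2.01. *PABPN1L*, an embryonic poly(A)-binding protein, fell from 55.9, 44.7 and 111 to 15.3, 31.3 and 6.70. That call was lost with no filter, with the replicate number as a block and in the fit of the 9 untreated libraries. *UPF3B*, of nonsense-mediated decay, fell from 22.5, 17.1 and 20.6 to 7.09, 3.55 and 6.24. *EXOSC8*, an exosome subunit, fell by 1.503, a call lost with values as deposited and without MII replicate 1 or 4-cell replicate 2 or 3.

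For writers, erasers and readers of N6-methyladenosine 2 of 20 were higher and 1 lower (relative median 0.01, 0.00 to 0.03). *YTHDC1*, the nuclear reader, rose from 6.44, 6.15 and 5.88 to 36.6, 22.9 and 27.3 in every scaling. The 2 core subunits of the methyltransferase were called in opposite directions, *METTL14* up by 1.02 and *METTL3* down by 1.16, but both calls were lost under at least 1 scaling and without at least 2 libraries. Of 49 nucleoporins and transport factors 6 were higher and 6 lower (relative median -0.17, -0.20 to -0.13). *XPO1*, the main export receptor, rose from 27.4, 25.3 and 31.8 to 148, 73.5 and 88.2, *NXF1*, the mRNA exporter, by 1.45 and *SEH1L* by 1.49, while *NUP107*, *NUP88* and *NUP85* fell by 1.73, 1.71 and 1.55.

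Among 11 zona pellucida and oocyte-secreted factors 0 were higher and 3 lower (relative median -0.03, -0.29 to 0.02). *GDF9*, the oocyte growth factor, stood at 232, 371 and 225 and then at 432, 447 and 569, and *ZP2*, of the zona pellucida, at 595, 568 and 543 and then at 667, 874 and 713, neither of them called. *ZP3* fell from 60.6, 203 and 77.2 to 29.2, 62.4 and 28.7, which overlap, a call lost under 3 scalings and without MII replicate 2 or 4-cell replicate 1 or 3. *ASTL*, the ovastacin that cleaves the zona after fertilization, fell by 1.51 and *BMP6* by 1.21, calls lost with values as deposited and without 4-cell replicate 3.

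Maternal-effect genes and the subcortical maternal complex had 2 higher and 5 lower of 22 (relative median -0.00, -0.26 to -0.01). *NLRP9* rose from 44.2, 88.2 and 44.4 to 151, 171 and 133. *KHDC3L* fell from 74.5, 35.1 and 84.0 to 16.7, 18.1 and 23.9, and *FIGLA*, which drives zona genes in the oocyte, from 5.61, 16.2 and 4.16 to 1.32, 1.72 and 1.87. *HSF1* rose by 1.25, a call lost under 2 scalings and without MII replicate 1 or 4-cell replicate 1. Of 12 imprinted genes (relative median 0.06, 0.02 to 0.04) 0 were higher and 2, *CDKN1C* and *IGF2R*, lower, both lost with values as deposited and without 4-cell replicate 3. *MEST* (18.996, 17.3 and 20.5, then 29.0, 21.1 and 22.6) and *PEG10* were not called.

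Regulators of meiotic arrest and exit had 5 higher and 9 lower of 51 (relative median -0.28, -0.39 to -0.26). *ARPP19*, an inhibitor of protein phosphatase 2A in mitosis, rose from 10.7, 12.8 and 9.73 to 48.2, 29.3 and 42.7, and *WEE1*, which holds CDK1 inactive, from 0.199, 0.226 and 0.259 to 2.11, 1.99 and 3.43. *MAD2L2* fell from 9.60, 20.0 and 5.43 to 2.09, 2.43 and 2.25, *PPP2R1A*, the scaffold of protein phosphatase 2A, by 1.63 and *INCENP*, of the chromosomal passenger complex, by 1.59. *RPS6KA3* rose by 1.16, a call lost under 2 scalings.

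Of 54 cyclins, cyclin-dependent kinases and parts of the anaphase-promoting complex (APC/C), 8 were higher and 5 lower (relative median 0.23, 0.19 to 0.24), 14 and 2 with values as deposited and 4 and 7 with equal summed FPKM. Both E-type cyclins, which drive entry into S phase, rose: *CCNE1* from 3.69, 2.71 and 3.88 to 13.5, 15.1 and 11.95 and *CCNE2* from 0.612, 0.974 and 0.751 to 2.35, 3.99 and 8.39. *ANAPC15*, an APC/C subunit, rose from 219, 221 and 253 to 941, 434 and 942. *UBE2S*, the enzyme that elongates ubiquitin chains on APC/C substrates, fell from 22.8, 14.0 and 21.9 to 1.53, 0.932 and 0.379 (log2 fold change -3.41, SE 0.29), and *ANAPC1* by 1.27. The mean of *UBE2S* as deposited was 9.28 FPKM, under the limit set for the furthest falls above. *E2F4* fell by 1.20, a call lost with values as deposited and without 4-cell replicate 3.

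DNA replication had 5 higher and 10 lower of 50 (relative median -0.02, -0.03 to 0.00). *ORC4*, of the origin recognition complex, rose from 4.58, 8.18 and 3.84 to 20.2, 18.5 and 20.2 and *MCM8*, a helicase of recombination, by 1.46. Of the 6 subunits of the replicative MCM helicase 0 were higher and 2 lower, with a median change of -0.93. *LIG1*, which joins Okazaki fragments, fell from 65.4, 55.8 and 76.6 to 9.12, 15.4 and 15.5, *POLE4* by 2.04 and *DUT*, which removes dUTP, by 1.91. *RFC3* was at 3.17, 25.9 and 2.64 and then at 34.8, 30.6 and 41.9, and its change of 2.30 was 3.21 without MII replicate 2. That call was lost under 2 scalings and without MII replicate 1 or 4-cell replicate 1 or 3. DNA repair had 3 higher and 7 lower of 44 (relative median -0.01, -0.16 to 0.03), with *NTHL1*, *LIG3* and *FANCI* down by 1.72, 1.70 and 1.45. *MRE11A* and *APEX1* rose by 1.08 and 1.05, calls lost under each other scaling but values as deposited, and without 1 library for the first and 4 for the second.

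Spindle and centromere genes had 8 higher and 5 lower of 55 (relative median -0.19, -0.26 to -0.13), but 1 and 8 with equal summed FPKM. *CENPU*, of the inner kinetochore, rose from 118, 137 and 83.4 to 602, 493 and 772, well beyond the spread of either stage. *KIF20A*, a kinesin of cytokinesis, fell from 62.6, 62.9 and 69.0 to 18.2, 22.3 and 17.9, and *KIF2C*, a microtubule depolymerase, by 1.33. *KIF2A* rose by 1.23, a call lost under 2 scalings. *SPC25* rose by 1.26 with overlapping stages, a call lost under 3 scalings and without MII replicate 1 or 3 or 4-cell replicate 1 or 3. In apoptosis 5 of 20 were higher and 0 lower, with 0 lower also in each of the 4 other scalings (relative median 0.28, 0.25 to 0.29). With *PMAIP1* rose *APAF1*, the core of the apoptosome, from 9.57, 8.38 and 7.89 to 38.2, 23.7 and 29.1.

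Of 34 histone methylases and demethylases 3 were higher and 4 lower (relative median -0.51, -0.49 to -0.44). Those that rose were *SUZ12*, from 5.55, 4.69 and 6.30 to 32.2, 17.9 and 25.1, and *EED*, from 9.93, 10.8 and 13.8 to 50.5, 28.9 and 48.4, both core parts of Polycomb complex 2, and *SUV39H2*, which methylates histone H3 lysine 9, from 73.6, 69.5 and 69.4 to 230, 172 and 190. *DPY30* and *KMT2B*, of the complexes that methylate histone H3 lysine 4, fell by 2.096 and 1.28, and *KMT2C* by 1.10, a call lost with values as deposited. Histone acetylation had 2 higher and 5 lower of 27 (relative median -0.44, -0.48 to -0.39). *HAT1*, which acetylates new histone H4, rose from 39.1, 75.7 and 39.8 to 162, 88.2 and 186 and *KAT2B* by 1.32, while *BRD3*, a reader of acetylated histones, fell from 24.8, 15.0 and 22.6 to 4.71, 6.54 and 2.66 and *SIN3A*, a scaffold of deacetylases, from 122, 100.1 and 113 to 43.9, 45.6 and 35.9.

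Of 11 genes of DNA methylation 0 were higher and 2 lower (relative median -0.27, -0.27 to -0.22). *DNMT3B*, a *de novo* methyltransferase, fell from 6.94, 4.18 and 4.64 to 1.38, 2.34 and 0.542. *UHRF1*, the partner of maintenance methylation, fell by 1.53, a call lost with values as deposited and without MII replicate 1 or 4-cell replicate 1 or 3. *DNMT1*, the maintenance enzyme, stayed abundant at 479, 328 and 517 and then 285, 257 and 288, and its change of -0.65 (SE 0.25) was not called (adjusted p = 0.0707). Histone variants and chaperones had 0 higher and 3 lower of 23 (relative median -0.16, -0.28 to -0.19): *HJURP*, *DAXX* and *SSRP1*, by 1.23, 1.11 and 1.09, each lost with values as deposited and without 4-cell replicate 3.

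Cytosolic ribosomal protein genes had the lowest relative median of the 38 lists, with 1 higher and 27 lower of 75 (relative median -0.90, -1.02 to -0.89). Their median level was 28.8, 45.2 and 20.0 in the MII libraries and 16.7, 11.5 and 17.6 in the 4-cell libraries. The large subunit had 17 lower of 43 and the small subunit 10 lower of 32, with median changes of -0.81 and -0.85, or -0.33 and -0.18 with the length trend removed. The subunits were not tested against each other. *RPLP1*, of the ribosomal stalk, fell from 141, 119 and 60.7 to 14.7, 13.7 and 15.6, and *RPL35* from 17.7, 24.3 and 5.21 to 0.894, 0.605 and 0.121 (log2 fold change -3.25, and -3.89 without MII replicate 3). *RPL7* was the single member that rose, by 1.23, with 37.0 in MII replicate 2 beside 11.7 and 11.3, and its call was lost under 3 scalings and without any of 4 libraries. These mRNAs are short, with a median model of 724 bases against 2827 for all tested genes. With the length trend removed 10 were lower and 2 higher and the relative median was -0.33, and 5 lists then lay lower, histone methylases and demethylases furthest at -0.59. Without that correction it was -0.64 without MII replicate 2 and -1.22 without MII replicate 3, with the other libraries between.

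**Figure D5:**
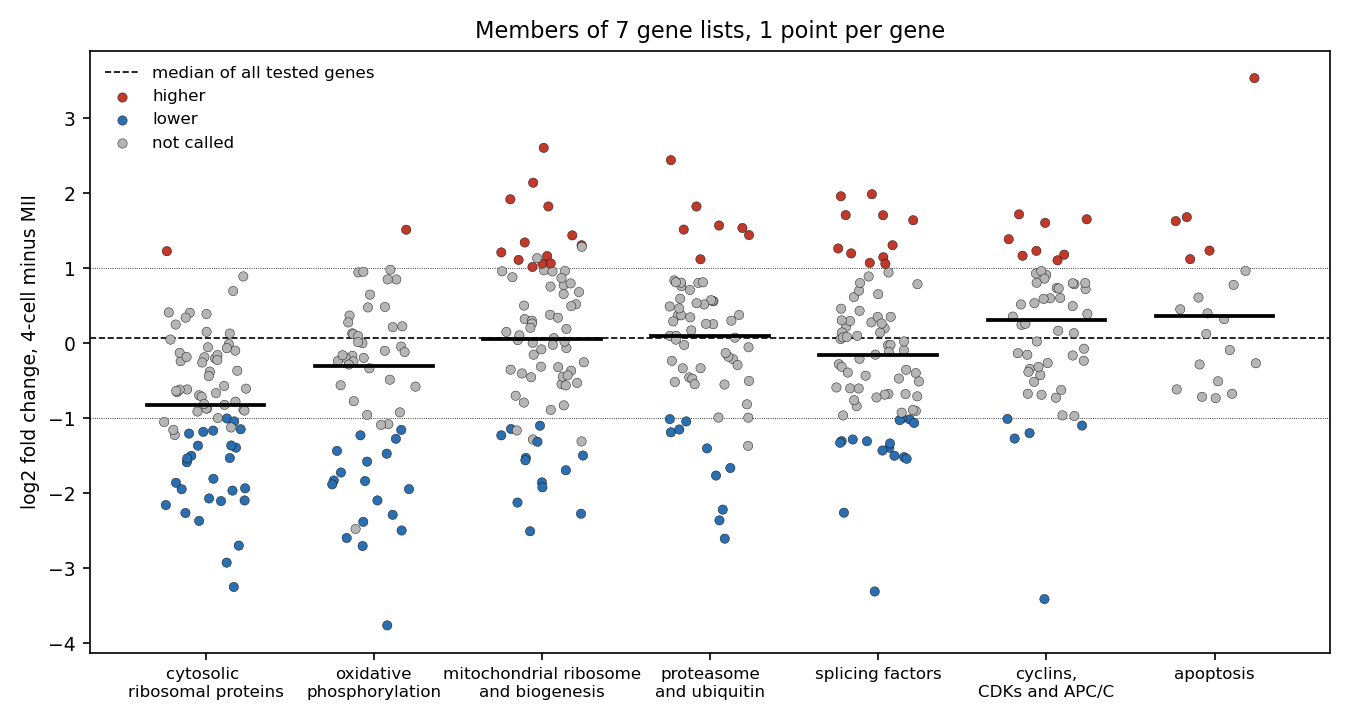
Log2 fold change of 4-cell embryos minus MII oocytes for each tested member of 7 gene lists, 1 point per gene, coloured by call, with a bar at the median of the list. The dashed line is the median of all tested genes and dotted lines mark 2-fold; the ribosomal protein points lie mostly below the dashed line, while called mitochondrial ribosome and proteasome genes lie on both sides and the called apoptosis genes all lie above.

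Ribosome biogenesis had 5 higher and 10 lower of 66 (relative median -0.18, -0.27 to -0.15), with *UTP11* up as above, *TAF1D*, of the RNA polymerase I machinery, up by 1.67, and *NOP10* (45.2, 69.3 and 33.6, then 18.98, 5.22 and 11.6), *UTP3* and *DDX27* down by 2.05, 1.77 and 1.55. *DDX47* rose by 1.49, a call lost under 2 scalings and without MII replicate 1 or 4-cell replicate 3. Initiation and elongation factors had 6 higher and 3 lower of 49 (relative median 0.09, 0.01 to 0.08). *ETF1*, the release factor that ends translation, rose from 1.07, 2.60 and 1.18 to 13.7, 8.39 and 10.5, *EIF2S1*, the alpha subunit of eIF2, from 9.91, 10.7 and 9.71 to 28.7, 27.2 and 45.0, and *EIF3M* by 1.57. *EIF4G3*, a scaffold of the cap complex, fell from 33.4, 26.3 and 25.7 to 8.95, 7.45 and 10.1, *EIF3K* by 1.46, a call lost without MII replicate 1, and *EIF1* by 1.16, a call lost with values as deposited.

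Nuclear-encoded subunits of oxidative phosphorylation had 1 higher and 18 lower of 56 (relative median -0.38, -0.57 to -0.36). Complex I held 14 of the falls among 37 subunits, ATP synthase 3 of 15 and complex II 1 of 4, and no subunit of complexes III and IV was analysed here. *ATP5H* fell from 45.2, 82.3 and 20.0 to 6.46, 4.51 and 6.09. *NDUFB4* fell from 37.4, 31.7 and 9.25 to 6.27, 0.631 and 3.89 (log2 fold change -2.60, -3.21 without MII replicate 3 and -1.96 without 4-cell replicate 2). *NDUFA5* rose by 1.51, with the value 29.1 in both MII replicate 2 and 4-cell replicate 2, a call lost without MII replicate 1 or 4-cell replicate 1 or 3. This list too is short, with a median model of 830 bases, and with the length trend removed it had 11 lower and 3 higher and a relative median of -0.15. The relative median was -0.29 without MII replicate 2 and -0.71 without MII replicate 3, with the other libraries between.

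Mitochondrial ribosome and biogenesis genes had 13 higher and 13 lower of 78 (relative median -0.02, -0.02 to -0.004), 21 and 9 with values as deposited, 4 and 17 with equal summed FPKM, and 19 and 12 with the length trend removed. *MRPL48* rose from 1.48, 9.06 and 1.18 to 27.1, 13.9 and 28.4 and *MRPL50* from 3.77, 19.2 and 5.48 to 37.2, 27.5 and 48.2, and MII replicate 2 was the highest oocyte library for both (changes of 2.61 and 2.14, 3.30 and 2.75 without it). *MRPL57* fell from 90.5, 71.0 and 96.9 to 32.0, 11.1 and 7.79, *MRPL33* by 2.28 and *MRPS18C* by 2.13. *MRPL37* rose by 1.92, a call lost under 2 scalings. Glycolysis and pyruvate metabolism had 5 higher and 2 lower of 24 (relative median 0.26, 0.23 to 0.30). *LDHB*, lactate dehydrogenase B, rose from 21.2, 60.1 and 24.2 to 94.4, 77.6 and 120 and *PDK1*, which shuts off pyruvate dehydrogenase, from 15.1, 10.9 and 13.1 to 44.4, 28.2 and 37.9. *SLC2A3*, a glucose transporter, rose by 1.45, with 16.5 in 4-cell replicate 2 beside 4.21 and 4.99, a call lost under 2 scalings and without MII replicate 1 or that library. *MPC2*, of the mitochondrial pyruvate carrier, fell by 1.43 and *HK2*, a hexokinase, by 1.12, the latter lost with values as deposited and without MII replicate 3.

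Redox enzymes had 2 higher and 2 lower of 29 (relative median -0.21, -0.23 to -0.16): *MGST3* fell by 1.43, while *TXN* and *MGST1* rose by 1.21 and 1.18 and *CAT* fell by 1.09, these 3 lost under at least 1 scaling and without 3 libraries each. Lipid and cholesterol metabolism had 0 higher and 2 lower of 24 (relative median -0.39, -0.39 to -0.39). Both, *SREBF1* by 1.45 and *LIPE* by 1.09, were lost with values as deposited and without MII replicate 3 or 4-cell replicate 3. The list of amino acid and ion carriers had 1 higher, the glucose transporter *SLC2A3* whose call was lost as above, and 4 lower of 27 (relative median -0.04, -0.07 to 0.01), among them *SLC3A2*, the heavy chain of several amino acid transporters, from 45.1, 31.6 and 72.3 to 7.55, 14.0 and 10.00, *SLC5A1* by 1.47 and *ATP1B1*, of the sodium pump, by 1.25.

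In protein folding 5 of 50 were higher and 6 lower (relative median -0.05, -0.10 to -0.0015). *PFDN1*, a prefoldin, rose from 31.4, 118 and 14.6 to 324, 211 and 323 (2.85, 3.63 without MII replicate 2 and 2.19 without MII replicate 3). *HSPB11* fell from 12.2, 9.97 and 13.9 to 3.21, 2.41 and 3.25. *VBP1* and *DNAJA2* rose by 1.34 and 1.18, calls lost without MII replicate 1 or 4-cell replicate 1 or 3 for the first and under 2 scalings and without MII replicate 2 for the second, and *PFDN6* and *CDC37* fell by 1.17 and 1.15, calls lost with values as deposited and, for *PFDN6*, without 4-cell replicate 2. Proteasome and ubiquitin genes had 7 higher and 10 lower of 64 (relative median 0.02, 0.01 to 0.07). Of the conjugating enzymes, *UBE2B* rose from 3.49, 10.4 and 3.92 to 37.6, 21.7 and 45.0 and its paralog *UBE2A* by 1.57, while *PSMA7*, of the 20S core, fell from 161, 172 and 79.2 to 20.8, 20.2 and 34.6, *PSMB3* by 2.61 and *UBA1*, the main activating enzyme, by 2.22. The 20S core held 4 falls and 1 rise among 14 subunits and the 19S cap 1 fall and 0 rises among 19. Autophagy and lysosome genes had 1 higher and 5 lower of 38 (relative median -0.06, -0.15 to -0.03). *SQSTM1*, the cargo receptor p62, fell from 42.0, 42.1 and 85.0 to 6.38, 18.3 and 6.39, *PSAP* by 2.19 and *GABARAPL2* by 1.41.

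Actin, its regulators, thymosins, septins and keratins had 4 higher and 5 lower of 36 (relative median 0.23, 0.22 to 0.27). With *TMSB4X* rose *CFL2*, which severs filaments, from 19.3, 34.9 and 15.6 to 91.1, 59.9 and 120, and *ARPC4*, of the Arp2/3 complex, by 1.88. *PFN1*, profilin, fell from 49.996, 52.2 and 33.8 to 6.11, 8.79 and 5.26, *EZR*, ezrin of microvilli, from 48.1, 44.5 and 43.4 to 7.46, 14.3 and 9.72, and *ACTB*, beta-actin, by 1.69. Cell junction genes had 0 higher and 6 lower of 31 (relative median -0.39, -0.39 to -0.33). *CDH1*, E-cadherin, fell from 20.8, 15.3 and 16.6 to 8.05, 5.72 and 5.28, *CGN* by 1.25 and *AFDN* by 1.25.

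Signalling lists held changes in both directions. Of 50 genes of the TGF-beta, WNT, FGF, Notch and Hippo pathways 7 were higher and 6 lower (relative median 0.03, 0.01 to 0.05). *FZD6*, a WNT receptor, rose from 8.37, 1.43 and 2.15 to 21.9, 16.1 and 23.4 (2.35, and 2.95 without MII replicate 1), *JAG1*, a Notch ligand, by 1.43 and *SMAD5*, which carries BMP signals, from 72.8, 49.1 and 56.5 to 196, 122 and 158. *DVL2*, which relays WNT signals, fell from 8.92, 6.46 and 5.95 to 1.04, 1.91 and 0.744, and *TCF7L2* and *AXIN2*, the factor and a target of the same pathway, by 1.35 each. Of 14 interferon and antiviral genes 2 were higher and 2 lower (relative median -0.22, -0.36 to -0.17): *JAK2* and *DDX58*, the sensor RIG-I, rose by 1.42 and 1.27, and *JAK1* and *STAT2* fell by 1.10 and 1.02, both lost with values as deposited and without 4-cell replicate 3.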

How the data were processed

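The mRNA of goat MII oocytes and 4-cell embryos was measured by Smart-seq2, per the labels. Per the study's methods, alignment used HISAT2 and the ARS1 assembly, only reads with 1 place were kept, HTSeq did the counting, and the authors deposited FPKM per gene. Here FPKM were divided by median-ratio factors over 12830 genes above 0 in all 6 libraries, and log2(rescaled FPKM + 1) was fitted with limma 3.58.1 (R 4.3.3; lmFit, eBayes with trend, no covariate). The pseudocount of 1 understates changes of low genes. Total fragments and model lengths came from the steps between values, and whole fragments were recovered for 100% of 17653 genes. No source used here says whether replicates are separate cultures or animals, so p-values measure only the spread between these samples, which may be technical. Named genes were the 12 furthest rises and 12 furthest falls (called, not overlapping, with a symbol and a mean of at least 10 FPKM as deposited, before rescaling), the 5 most abundant per stage, and up to 3 called genes per list and direction, or the first 3 measured where fewer were called. Genes with a locus number, those present at a single stage and *ZP2* and *GDF9* were named after their values were seen. The comparison, members and lists were chosen with earlier results of these data known. RefSeq symbols matched 8679 of the 8705 genes. Libraries of injected embryos were not used, and 8-cell libraries entered only a fit of the 9 untreated libraries. Some genes that the naming rule chose are not reported here.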

Additional observations from a re-analysis of the deposited data

Results flagged for a closer look

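The 4-cell table holds 3667 names, each listed once, that the MII table does not hold, and these lie outside the comparison. Of them 337 had a mean of at least 1 FPKM in the 4-cell libraries, and together the names held 2.37 to 3.03% of the summed FPKM there. *LOC106502328* was the highest, at 4906, 4408 and 6300 FPKM as deposited. No level in MII oocytes is known for them, so no direction is given. Groups of 3 libraries were not searched for single libraries far from the others.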

How the results depend on the processing

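The counts of higher and lower genes were 965 and 924. They became 1472 and 592 with values as deposited, 571 and 1224 with equal summed FPKM, 565 and 1285 with the fragments on shared genes as the total, and 599 and 380 when the minimum mean was raised to 10 FPKM (3810 genes). Quantile normalization gave 849 and 962, a pseudocount of 0.1 gave 1196 and 1171, no filter 812 and 766, limma voom on fragments 1221 and 1155, the 9 untreated libraries in 1 fit 834 and 768, and removal of the length trend 1024 and 815. Unadjusted p-values gave 987 and 953. Leaving out 1 library gave 797 to 1166 higher and 793 to 1026 lower.

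With the replicate number as a block (replicate block) the counts were 901 and 838. The numbers were not taken as pairs, since deviations from the group means correlated at 0.214, -0.092 and -0.140 for the same number and at -0.127 to 0.205 for other numbers.

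Changes that took the other sign were all of genes not called. *CKS1B* (-0.13) was 0.14 as deposited, 0.30 with the length trend removed and -0.30 to 0.12 without a library. *HMGCS1* (0.03) was -0.23, -0.25 and -0.21 with equal summed FPKM, fragments on shared genes and quantile normalization, -0.018 with the length trend removed and -0.18 to 0.14 without a library. *LOC102171358* (0.01) was -0.26, -0.27 and -0.67 under the same 3 scalings, -0.018 in the fit of 9 libraries and -0.30 to 0.41 without a library. *PTTG1* (0.38) was -0.20 after quantile normalization. *SQLE* (0.11) was -0.068 and -0.079 with equal summed FPKM and fragments on shared genes, and -0.060 to 0.27 without a library. The cause was not tested. With 3 libraries a stage, small changes and genes of low level are weakly resolved.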
